A study of Mus musculus with 9 samples.

Results

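Af10 (gene Mllt10), its paralog Af17 (Mllt6), the histone methyltransferase Dot1l and 7 further genes were measured in mouse leukemias. Those 7 are genes of histone readers and elongation complexes tied to MLL fusions. The leukemias carried MLL-AF9 with a floxed or Cre-deleted Af10, or were made with Hoxa9 and Meis1. The set holds 10 genes: Mllt10, Mllt6, Dot1l, Mllt1, Mllt3, Aff1, Aff3, Aff4, Ell and Cdk9. Every probe set annotated with the symbol of exactly 1 of these genes was taken, which gave 26 of the 45101 probe sets and 10 of the 18194 named genes on the array. All 10 genes were represented, by 2 to 4 probe sets each. The samples were 3 groups of 3 arrays, all from freshly harvested bone marrow cells on a C57/BL6 X 129 background. In the Af10 deleted group (replicates 4, 5 and 6), MLL-AF9 leukemias homozygous for a floxed AF10 allele had received an MSCV-IRES-tdTomato vector (MIT) that expresses Cre recombinase. The Af10 floxed group (replicates 4, 5 and 6) carried the same fusion and the same floxed alleles with the MIT vector alone. Both came from secondary recipient mice and were sorted for tdTomato. The third group (replicates 1 to 3) was primary leukemia made by transduction of Hoxa9 and Meis1, without sorting, and its Af10 genotype is not given in the labels. Oncogene, transplant generation, vector and sorting therefore cannot be told apart when that group is compared. Between the first 2 groups, Cre itself and the Af10 deletion cannot be told apart. Which exons of Mllt10 are floxed is not stated, nor how many primary leukemias were used or how old the mice were.

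As background, DOT1L methylates lysine 79 of histone H3, a mark of transcribed genes, and works in a complex with AF10 or AF17 and with AF9 or its paralog ENL. AF9 and ENL also bind the super elongation complex, built on an AF4 family scaffold (AFF1, AFF3 or AFF4) that holds ELL and the kinase P-TEFb, which releases paused RNA polymerase II. MLL fusion proteins join the DNA-binding part of MLL to a member of these complexes and hold them at HoxA and other progenitor genes, and AF10 itself, AF17, AF4, LAF4 (AFF3), AFF4, ENL and ELL are known fusion partners.

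Levels are given as log2(intensity + 1) of the deposited intensities and differences are on that scale. Background was gauged from 9 probe sets of Y-linked genes (Uty, Kdm5d and Eif2s3y), whose values ran from 2.97 to 4.71 over the arrays; the X-linked Xist was at 12.75 or more on each. Of the 26 probe sets, 24 lay above it on all 9 arrays; 2 of the 3 Mllt3 probe sets entered it on 3 and 4 arrays. A probe set was called when its limma adjusted p was under 0.05, with adjustment over all 45101 probe sets. Errors after ± are SD (n = 3 arrays), and intervals are 95% intervals of the fitted difference. The array medians of intensity were 146 to 156. Among myeloid markers 10 of 10 were measured and 0 lay within the background range in any group, with Mpo at 13.85 ± 0.14 in deleted, 13.87 ± 0.11 in floxed and 14.19 ± 0.11 in Hoxa9-Meis1 leukemias. The summed intensity of the 10 was 70333 to 78377 on deleted, 58755 to 74431 on floxed and 77291 to 87124 on Hoxa9-Meis1 arrays. Over their 13 probe sets the median was 0.31 for deleted minus floxed (0.04 over all probe sets), with 0 called. It was -0.34 for floxed minus Hoxa9-Meis1, with Csf3r and Ptprc called lower, and -0.18 for deleted minus Hoxa9-Meis1, with Ptprc called lower. The labels of the Hoxa9-Meis1 group were met by 1 Hoxa9 probe set (13.74 ± 0.14), while the other (4.71 ± 0.73) and all 3 Meis1 probe sets (4.75 to 6.87) were low there, which goes against the label; where these probe sets lie relative to the transduced cDNA is not known here. Floxed replicate 5 had the widest gap between the 3' and 5' Gapdh control probe sets (1.03, against 0.44 to 0.81 on the other arrays). Its gap between the beta-actin control probe sets (-0.37) was within the range of the other arrays (-0.41 to -0.34). Genes of chromosome 1 were higher in deleted replicate 6 by a median of 0.22 against the mean of the other deleted arrays. Values without these arrays are given where a member's call changes.

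Mllt10 encodes AF10, whose PHD finger region reads unmodified histone H3 and whose coiled coil binds DOT1L. All 4 of its probe sets were lower in deleted than in floxed leukemias, and the 2 groups did not overlap at any of them. At 1420869_at deleted leukemias were at 9.93, 9.89 and 10.19 (replicates 4, 5 and 6), floxed leukemias at 11.20, 10.49 and 11.18, and Hoxa9-Meis1 leukemias at 10.93, 10.67 and 10.46. The lowest floxed array, replicate 5, was within the range of the Hoxa9-Meis1 arrays and above every deleted array. At 1420870_at the arrays were at 8.49, 8.55 and 8.56 in deleted, 9.54, 9.74 and 9.45 in floxed and 9.09, 9.10 and 9.13 in Hoxa9-Meis1 leukemias. Here the 3 groups were fully separated, with the Hoxa9-Meis1 arrays between the other two. At 1438525_at the deleted arrays were at 9.51, 9.45 and 9.63, the floxed at 10.18, 10.26 and 10.41 and the Hoxa9-Meis1 at 9.50, 9.78 and 9.69. At 1442070_at they were at 8.20, 8.25 and 8.61, at 9.32, 8.98 and 9.46, and at 9.04, 9.06 and 8.66. Deleted arrays were the lowest at 3 of these probe sets, and at 1438525_at they overlapped the Hoxa9-Meis1 arrays.

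**Figure D1:**
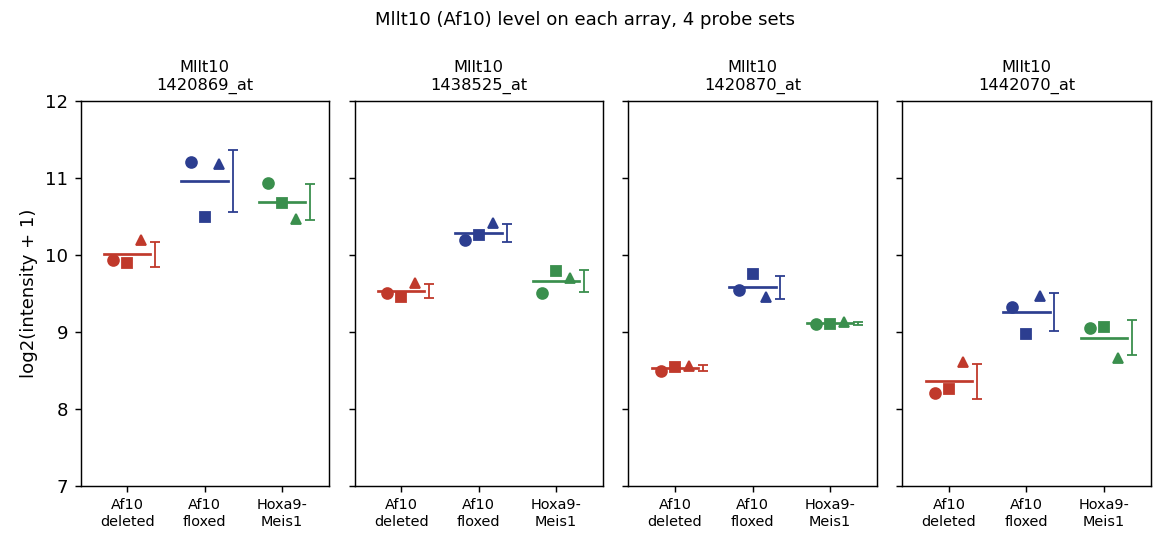
Level of Mllt10 on each array, as log2(intensity + 1), for its 4 probe sets (panels). Points are single arrays (circle, square and triangle: replicates 4, 5 and 6, or 1, 2 and 3 for Hoxa9-Meis1), lines are group means and bars are SD (n = 3). Every deleted array lies below every floxed array in all 4 panels.

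The fall of Mllt10 from floxed to deleted leukemias was 1.05 on the log2 scale at 1420870_at (difference -1.05, interval -1.30 to -0.80, limma adjusted p = 0.00105). It was -0.76 at 1438525_at (interval -1.03 to -0.48, limma adjusted p = 0.00847), -0.90 at 1442070_at (limma adjusted p = 0.0219) and -0.95 at 1420869_at (limma adjusted p = 0.0328). On the linear scale, the mean intensity left in deleted leukemias was 48.1%, 59.1%, 53.4% and 50.6% of that in floxed leukemias, in the same order. In bulk RNA, fewer cells with the transcript and less transcript per cell cannot be told apart, and whether a probe set lies outside the deleted part was not tested. Calls at 1420870_at and 1438525_at held under all 14 alternatives that include them (limma adjusted p up to 0.01 and 0.0441). The call at 1420869_at was lost on leaving out any deleted array or floxed replicate 4 or 6 (limma adjusted p of 0.0507 to 0.0974) and with only the 2 groups in the fit (0.0677), and that at 1442070_at on leaving out either of deleted 4 and 5 or of floxed 4 and 6 (up to 0.0759).

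Mllt10 was also compared with its level in Hoxa9-Meis1 leukemias. Their Af10 genotype is not given, so that level is no known baseline for the gene. The group means were in the order deleted, Hoxa9-Meis1, floxed at all 4 probe sets. Floxed leukemias were higher than Hoxa9-Meis1 at 2 of the 4: by 0.62 at 1438525_at (interval 0.35 to 0.90, limma adjusted p = 0.0152) and by 0.47 at 1420870_at (interval 0.22 to 0.72, limma adjusted p = 0.0302). The second of these calls was lost in 8 of 13 alternatives, among them the fits without floxed replicate 4 or 5 or without any of the 3 Hoxa9-Meis1 arrays (limma adjusted p up to 0.102). The first was lost without Hoxa9-Meis1 replicate 1 (0.0648). Deleted leukemias were lower than Hoxa9-Meis1 by 0.58 at 1420870_at (difference -0.58, interval -0.83 to -0.33, limma adjusted p = 0.00843). At the other 3 probe sets that difference was -0.68, -0.57 and -0.13 and did not pass (limma adjusted p = 0.0603, 0.0684 and 0.543). The difference at 1442070_at passed without deleted replicate 6 (-0.69, 0.0496; 0.0307 without floxed replicate 5 as well), and that at 1420869_at passed without both arrays (-0.78, 0.0211). The mean intensity in deleted leukemias was 61.9% to 91.1% of that in Hoxa9-Meis1 leukemias over the 4 probe sets.

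The paralog Mllt6 encodes AF17, which has the same kind of PHD finger region and DOT1L-binding coiled coil. None of its 3 probe sets passed in any comparison. At 1433811_at deleted leukemias were at 7.89, 7.46 and 8.61, floxed at 8.10, 7.90 and 7.55 and Hoxa9-Meis1 at 8.32, 8.10 and 8.79. At 1451685_at deleted leukemias were at 5.60, 5.63 and 7.41, floxed between 5.71 and 6.16 and Hoxa9-Meis1 at 6.23, 5.91 and 6.63. Deleted replicate 6 was the highest deleted array at both and the highest of all 9 at the latter. At 1425360_at the groups were at 7.24 ± 0.15, 7.01 ± 0.34 and 7.50 ± 0.16, and that array was not apart (7.26). The deleted minus floxed difference was 0.13 (interval -0.54 to 0.81, limma adjusted p = 0.837), 0.25 (-0.75 to 1.25, 0.786) and 0.23 (-0.18 to 0.64, 0.508) at these 3 probe sets. The widest interval, at 1451685_at, does not set apart a change of 1.25 from none. Without deleted replicate 6 the first 2 differences turned to -0.18 and -0.35 (limma adjusted p = 0.767 and 0.46).

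Dot1l, the methyltransferase of the complex, passed in no comparison at either of its probe sets. At 1457268_at deleted leukemias were at 9.93, 10.06 and 9.93, floxed at 9.92, 9.61 and 10.18 and Hoxa9-Meis1 at 9.90, 9.92 and 9.95, and all groups overlapped. The deleted minus floxed difference was 0.07 (interval -0.26 to 0.40, limma adjusted p = 0.832), and it was -0.02 for floxed minus Hoxa9-Meis1 (-0.35 to 0.31, 0.963). At 1439488_at the arrays were at 9.20, 9.30 and 9.74 in deleted, between 8.80 and 9.29 in floxed and 9.78, 9.66 and 9.40 in Hoxa9-Meis1 leukemias. Every floxed array was below every Hoxa9-Meis1 array there, but the difference of -0.58 (interval -1.01 to -0.16) did not pass (limma adjusted p = 0.0918), nor did deleted minus floxed (0.38, interval -0.04 to 0.81, limma adjusted p = 0.278). Floxed replicate 5 was the lowest array at both Dot1l probe sets.

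Mllt1 and Mllt3 encode ENL and AF9, whose YEATS domains read acylated histone H3 and whose C-terminal domain binds DOT1L or an AF4 family scaffold. At the Mllt1 probe set 1434805_at deleted leukemias were at 9.95, 10.03 and 10.30, floxed at 9.74, 8.79 and 10.03 and Hoxa9-Meis1 at 10.08, 10.18 and 10.02. Floxed replicate 5 lay below all 8 other arrays, and the floxed SD was 0.65. No Mllt1 comparison passed: deleted minus floxed was 0.57 (interval -0.05 to 1.20, limma adjusted p = 0.271) here and 0.17 (-0.31 to 0.65, 0.689) at 1421060_at. At 1434805_at it was 0.21 without floxed replicate 5, and 0.11 without deleted replicate 6 as well. Deleted and Hoxa9-Meis1 leukemias differed by 0.00 at 1434805_at (interval -0.62 to 0.63, limma adjusted p = 0.999).

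Mllt3 was higher in Hoxa9-Meis1 leukemias than in both MLL-AF9 groups at 1 of its 3 probe sets. At 1429205_at the Hoxa9-Meis1 arrays were at 6.20, 5.76 and 5.52, the floxed at 4.54, 5.02 and 4.74 and the deleted at 4.69, 4.70 and 4.52. The Hoxa9-Meis1 arrays stood clear of the rest, and 4 of the 6 MLL-AF9 arrays were within the background range, all 3 deleted and 1 floxed. Floxed leukemias were lower by 1.06 on the log2 scale (difference -1.06, interval -1.49 to -0.63, limma adjusted p = 0.0112) and deleted leukemias by 1.19 (difference -1.19, interval -1.62 to -0.76, limma adjusted p = 0.00393). Because the deleted arrays were not above background, only a bound can be given there: with such values set to the upper end of the range, Hoxa9-Meis1 leukemias were at least 2.17-fold higher than deleted and at least 2.01-fold higher than floxed leukemias. At 1431890_a_at the Hoxa9-Meis1 arrays were at 7.15, 6.43 and 5.13 against 3.92, 4.51 and 5.45 in floxed and 5.13, 4.48 and 4.82 in deleted leukemias. Hoxa9-Meis1 replicate 3 was no higher than some MLL-AF9 arrays there. At 1453622_s_at it was at 7.98, the value of every floxed array and of 2 deleted arrays, while replicates 1 and 2 were at 8.91 and 9.03. Neither probe set passed with all arrays (floxed minus Hoxa9-Meis1 -1.61 and -0.66, limma adjusted p = 0.0915 and 0.132). Without Hoxa9-Meis1 replicate 3 both did, at -2.17 and -0.99 (limma adjusted p = 0.0208 and 0.00257). The equal values at 1453622_s_at give a floxed SD of 0.00, so the second p does not gauge the spread between arrays. Between deleted and floxed leukemias the 3 probe sets differed by -0.13 to 0.18 and did not pass. Whether any of these probe sets reads the AF9 part of the fusion transcript was not tested.

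Aff3 encodes LAF4, an AF4 family scaffold known from lymphoid cells, and after Mllt10 it was the only member called between deleted and floxed leukemias. At 1433939_at the deleted arrays were at 7.37, 6.91 and 6.74, the floxed at 8.86, 10.40 and 8.55 and the Hoxa9-Meis1 at 9.66, 9.15 and 9.36. Every deleted array was below all 6 others, and floxed replicate 5 was the highest of the 9. The difference was -2.27 to floxed (interval -3.22 to -1.31, 4.81-fold lower, limma adjusted p = 0.0166) and -2.39 to Hoxa9-Meis1 leukemias (interval -3.34 to -1.43, 5.23-fold lower, limma adjusted p = 0.00632). At 1430435_at the arrays were at 7.20, 7.05 and 7.45 in deleted, 7.68, 7.67 and 7.53 in floxed and 8.25, 8.21 and 8.36 in Hoxa9-Meis1 leukemias. The groups did not overlap, in the order deleted, floxed, Hoxa9-Meis1. There deleted minus floxed was -0.39 (interval -0.68 to -0.11) and did not pass (limma adjusted p = 0.112), whereas both MLL-AF9 groups were lower than Hoxa9-Meis1, floxed by 0.65 (difference -0.65, limma adjusted p = 0.0162) and deleted by 1.04 (difference -1.04, limma adjusted p = 0.00107). The 2 probe sets thus disagree in size, and on whether floxed leukemias differ from Hoxa9-Meis1: at 1433939_at that difference was -0.12 (interval -1.08 to 0.83, limma adjusted p = 0.905).

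Without floxed replicate 5 the deleted minus floxed difference of Aff3 at 1433939_at was -1.70 (limma adjusted p = 0.0102), and without that array and deleted replicate 6 together it was -1.57 (0.0246). The call was lost without deleted replicate 5 (0.0526) or 6 (0.0513) and with only the 2 groups in the fit (0.0522). The call of floxed against Hoxa9-Meis1 at 1430435_at was lost without Hoxa9-Meis1 replicate 1 (0.0588). Aff3 lies on chromosome 1, whose genes were higher by 0.22 in deleted replicate 6. That array had the lowest Aff3 at 1433939_at (6.74) but the highest of the deleted arrays at 1430435_at (7.45). Chromosome 1 genes were also higher by 0.08 in floxed replicate 5, against the other floxed arrays. The part of these shifts in the Aff3 values was not tested. Of 14 measured B cell markers, 2 fell and 1 rose from floxed to deleted leukemias, against 3.75% of all named genes with a probe set called higher and 4.72% with one called lower. Their summed intensity was 2148 to 2208 on deleted, 3525 to 4472 on floxed and 1735 to 3079 on Hoxa9-Meis1 arrays. The median difference over their 25 probe sets was nonetheless 0.21, against 0.04 over all probe sets, so the sum and the median went opposite ways; Cd79b (-0.75) and Il7r (-2.48) fell and Dntt (0.87) rose. The defining B cell gene Pax5 was at 7.06 ± 0.15, 6.68 ± 0.09 and 6.85 ± 0.07 at 1421765_at, and 0 of the 14 genes were within the background range by the probe set that entered the sum. Il7r, a marker of early B cells, was at 6.31, 5.67 and 6.52 on deleted, 7.57, 10.29 and 8.06 on floxed and 6.53, 6.13 and 6.08 on Hoxa9-Meis1 arrays at 1448575_at, with its highest value, like that of Aff3, on floxed replicate 5. Pax5 at 1421765_at had its lowest value of all arrays there (6.58). The summed intensity of 8 stromal and endothelial markers was 823 to 1178, 1572 to 2319 and 1513 to 2587, while 1 of the 8, Pecam1 (-2.12), fell and the median over their 14 probe sets was 0.04. Of 11 measured T and NK cell markers, 4 rose (Gzma by 1.56, Klrd1 by 1.13, Thy1 by 1.07 and Cd3e by 0.93) and Cd5 fell by 1.20, with a median of 0.45 over 16 probe sets. Their summed intensity was 1739 to 3918 on deleted, 2447 to 5127 on floxed and 2414 to 5010 on Hoxa9-Meis1 arrays. The floxed means of Gzma, Klrd1 and Ncr1 lay within the background range, so the sizes of the Gzma and Klrd1 rises are not exact. Ncr1 lay there in the other groups too, and Klrd1 in Hoxa9-Meis1 leukemias. The part of B, T, NK or stromal cells in the Aff3 difference was not tested.

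**Figure D2:**
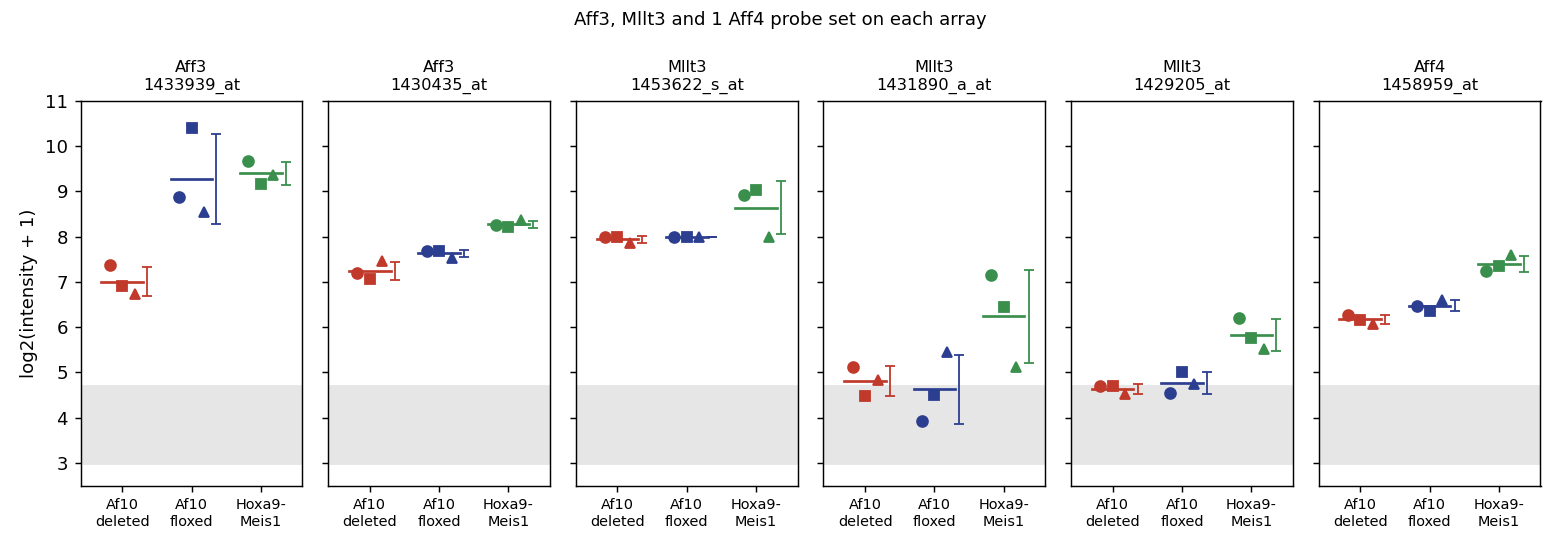
Level on each array, as log2(intensity + 1), of both Aff3 probe sets, all 3 Mllt3 probe sets and Aff4 1458959_at. Points are single arrays (circle, square and triangle: replicates 4, 5 and 6, or 1, 2 and 3 for Hoxa9-Meis1), lines are means, bars are SD (n = 3) and the grey band is the Y-linked background range of 2.97 to 4.71. Aff3 is lowest on the deleted arrays at both probe sets, and Mllt3 1429205_at and Aff4 1458959_at are highest on the Hoxa9-Meis1 arrays.

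Since Mllt10 and Aff3 were the members called between deleted and floxed leukemias, their start regions are shown, from RefSeq (GRCm38.p6), as 250 bases before to 50 after the start. MLL carries a CXXC domain that binds unmethylated CpG, and capitals mark each CpG. For Mllt10, which has 3 annotated starts, the window with the most CpG is given (chr2:18064335-18064634, plus strand). The Aff3 window is chr1:38627195-38627494, minus strand.
Mllt10: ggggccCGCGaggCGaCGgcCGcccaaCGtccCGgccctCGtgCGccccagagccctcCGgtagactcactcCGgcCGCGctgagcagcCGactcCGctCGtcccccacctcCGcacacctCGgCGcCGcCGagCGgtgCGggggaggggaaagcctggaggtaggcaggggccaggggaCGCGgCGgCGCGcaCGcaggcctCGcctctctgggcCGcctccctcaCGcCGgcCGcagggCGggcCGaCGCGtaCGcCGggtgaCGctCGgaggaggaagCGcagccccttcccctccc
Aff3: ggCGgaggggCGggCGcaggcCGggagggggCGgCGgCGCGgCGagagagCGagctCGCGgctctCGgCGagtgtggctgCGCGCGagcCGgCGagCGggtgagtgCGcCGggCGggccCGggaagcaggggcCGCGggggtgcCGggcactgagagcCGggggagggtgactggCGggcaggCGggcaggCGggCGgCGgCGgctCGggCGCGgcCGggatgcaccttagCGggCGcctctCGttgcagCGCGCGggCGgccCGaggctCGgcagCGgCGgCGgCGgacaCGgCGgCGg
The Mllt10 window holds 43 CpG and the Aff3 window 54, against a median of 7 over all 32851 windows of this length, of which 97.4% and 99.7% hold fewer. All 10 members had at least 1 window, 14 in all, and the highest count after Aff3 was 49, for Dot1l. Windows of Mllt1 and Mllt6 hold 46 each, of Aff4 44, of Aff1 40 and of Cdk9 39. A high count was therefore not particular to Mllt10 and Aff3. The other 2 Mllt10 windows hold 6 and 7 CpG, and a window of Mllt3 holds 4. The letters TGATTNAT, a site of HOX with PBX proteins, were searched on both strands and stood in 0 of the 14 windows and in 3.22% of all windows. TGACAG, a MEIS site, stood in 1 window each of Ell, Mllt1 and Mllt3 and in 19.2% of all windows. A match or its absence in these windows describes the letters only.

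Aff1 encodes AF4, the scaffold that is the most frequent MLL partner in infant leukemia. Its 3 probe sets did not overlap between deleted and floxed leukemias, with the deleted arrays higher, as was so of 24.8% of all probe sets in either direction. At 1418135_at the deleted arrays were at 11.11, 11.27 and 11.04, the floxed at 10.72, 10.93 and 10.93 and the Hoxa9-Meis1 at 10.50, 10.57 and 10.36. At 1425641_at they were at 10.55, 10.51 and 10.57, at 10.27, 10.17 and 10.43, and at 9.94, 9.99 and 9.99. Both probe sets separate all 3 groups in the order Hoxa9-Meis1, floxed, deleted. Deleted minus floxed was 0.28 (interval 0.01 to 0.55), 0.26 (0.02 to 0.50) and, at 1425640_at, 0.46 (-0.05 to 0.97), and none passed (limma adjusted p = 0.212, 0.204 and 0.275). Deleted leukemias were higher than Hoxa9-Meis1 by 0.66 at 1418135_at (interval 0.39 to 0.93, limma adjusted p = 0.00663) and by 0.57 at 1425641_at (interval 0.33 to 0.81, limma adjusted p = 0.00801). Both calls held under every alternative run. At 1425640_at that difference was 0.34 and did not pass (limma adjusted p = 0.371).

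Aff4 encodes the scaffold of the super elongation complex that acts at most induced genes. It was lower in the MLL-AF9 groups than in Hoxa9-Meis1 leukemias at 1458959_at, where deleted arrays were at 6.28, 6.17 and 6.07, floxed at 6.48, 6.35 and 6.59 and Hoxa9-Meis1 at 7.24, 7.35 and 7.59. The 3 groups did not overlap. The difference to Hoxa9-Meis1 was -1.23 for deleted (interval -1.52 to -0.93, limma adjusted p = 0.000548) and -0.92 for floxed leukemias (interval -1.22 to -0.63, limma adjusted p = 0.00373), and these calls held under every alternative run. At 1420912_at the deleted group was lower by 0.52 (difference -0.52, limma adjusted p = 0.0331), a call lost with quantile normalization (0.0513) and without deleted replicate 4 or 5 or any Hoxa9-Meis1 array (up to 0.111). The Aff4 probe set 1450031_at was at 9.22 ± 0.12, 9.24 ± 0.31 and 9.38 ± 0.07 in deleted, floxed and Hoxa9-Meis1 leukemias and passed in no comparison. The 3 probe sets thus do not give 1 size for Aff4. Between deleted and floxed leukemias they differed by -0.30, -0.18 and -0.02 and did not pass (limma adjusted p = 0.22, 0.484 and 0.959).

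Ell encodes an elongation factor that keeps RNA polymerase II from stalling. At 1460643_at the deleted arrays were at 8.41, 8.10 and 8.10, the floxed at 7.94, 7.94 and 7.81 and the Hoxa9-Meis1 at 7.76, 7.67 and 7.98. Deleted arrays were the highest at this probe set and at 1441928_x_at (7.37, 7.27 and 7.24, against 6.85 to 7.14 on the other 6). Of all probe sets, 24.8% did not overlap between deleted and floxed and 34.2% between deleted and Hoxa9-Meis1 leukemias, in either direction. Deleted minus floxed was 0.30 (interval 0.00 to 0.60) and 0.34 (0.07 to 0.61) and did not pass (limma adjusted p = 0.229 and 0.14). The probe set ending in _x_at can bind related transcripts.

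Cdk9, the kinase of P-TEFb, was at 11.49 ± 0.07 in deleted, 11.48 ± 0.13 in floxed and 11.12 ± 0.23 in Hoxa9-Meis1 leukemias at 1417269_at. Deleted and floxed arrays overlapped over nearly their whole range, with a difference of 0.01 (interval -0.30 to 0.33, limma adjusted p = 0.975). Hoxa9-Meis1 replicates 1 and 2 were at 10.99, below the rest, and replicate 3 was at 11.39. Neither comparison with that group passed with all arrays, and both did without replicate 3 (floxed higher by 0.49, limma adjusted p = 0.0482, and deleted by 0.50, 0.0338). The other probe set, 1457240_at, differed by -0.08 to 0.05 in the 3 comparisons.

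Counted over all members, 5 of 26 probe sets were called lower and 0 higher in deleted against floxed leukemias, where 3.76% of all probe sets were called lower and 2.4% higher, 6.16% in all. The 5 were those of Mllt10 and 1 of Aff3, so 2 of 10 genes had a called probe set, against 8.45% of all named genes. Mllt10 is the gene targeted in this comparison, so its 4 calls are no support for a change in the set. Among the other members only that Aff3 probe set was called. An unadjusted p under 0.05 was found at 11 of the 26, the called ones included, and at 21.6% of all probe sets. Groups did not overlap at 12 of the 26 (24.8% of all), which were 4 of Mllt10, 3 of Aff1, 2 each of Aff3 and Ell and 1 of Aff4. Both counts thus include the 4 probe sets of the targeted gene. The median difference was 0.04 over the members and 0.04 over all probe sets. With only the 2 groups in the fit the count of 5 became 3, and it was between 2 and 5 when 1 array was left out: 2 without deleted replicate 5, 3 without deleted replicate 4 or 6 or floxed replicate 4 or 6, and 5 without floxed replicate 5.

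Between floxed and Hoxa9-Meis1 leukemias, 3 member probe sets were called lower (Mllt3, Aff3 and Aff4, 1 each) and 2 higher (Mllt10), where 4.07% and 4.94% of all probe sets were called, 9.01% in either direction. The groups did not overlap at 10 of the 26 (28.1% of all), and 4 of 10 genes had a called probe set (12.8% of all named genes). Between deleted and Hoxa9-Meis1 leukemias, 6 were lower (2 of Aff3, 2 of Aff4, and 1 each of Mllt10 and Mllt3) and 2 higher (Aff1), against 7.82% and 7.19% of all, 15% in either direction. The groups did not overlap at 13 of the 26 (34.2% of all), and 5 of 10 genes had a called probe set (19.9% of all named genes). A gene with more probe sets has more chances of a call in these shares. With 1 probe set per gene, 0 members were called lower and 0 higher for floxed, and 1 lower and 1 higher for deleted leukemias. The medians over the members were -0.13 and -0.23, and -0.03 and 0.02 over all probe sets. These comparisons share arrays with the first, so their calls are not independent of it. Mllt6, Dot1l, Mllt1, Ell and Cdk9 had no called probe set in any of the 3 comparisons.

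**Figure D3:**
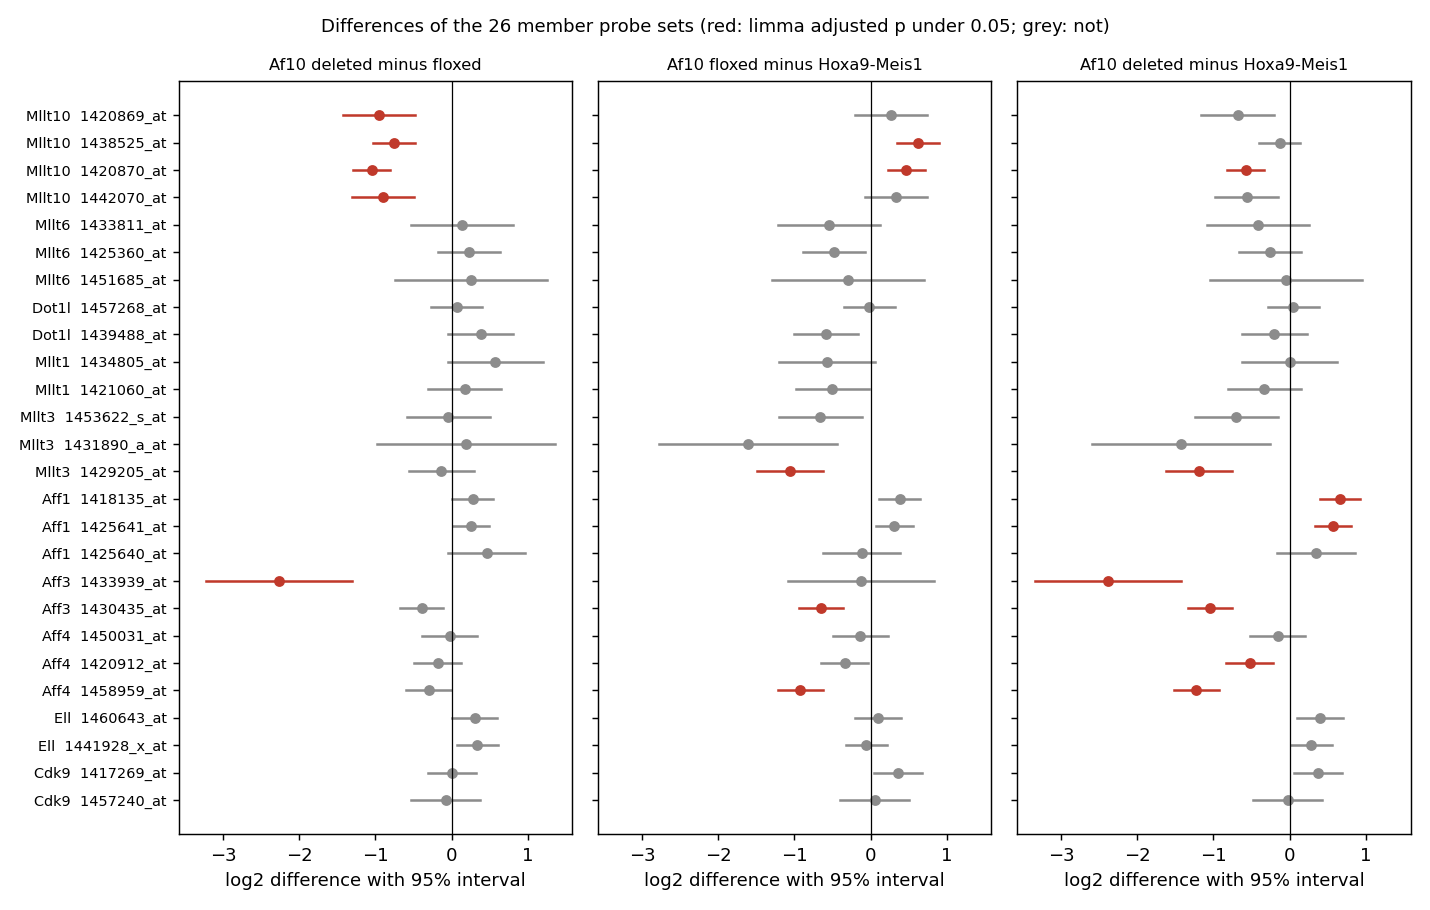
Fitted log2 difference of each of the 26 member probe sets (rows) with its 95% interval, in the 3 comparisons (panels). Red marks a limma adjusted p under 0.05 and grey the rest: 5, 5 and 8 probe sets are red from left to right, and the Aff3 probe set 1433939_at has the largest difference in the first and the last panel (-2.27 and -2.39).

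Across arrays the members did not move as 1 block. Floxed replicate 5 carried the lowest Mllt1, Dot1l and Mllt6 values at 1434805_at, 1457268_at and 1425360_at and the highest Aff3 value, while its Mllt10 was the lowest floxed value at 1420869_at and 1442070_at and the highest at 1420870_at. Deleted replicate 6 carried the highest Mllt6 value at 1451685_at. Floxed replicate 5 also had the lowest summed myeloid marker intensity of the 9 arrays (58755) and the highest Il7r at 1448575_at (10.29). Its summed B cell marker intensity, which includes Il7r, was the highest (4472). Pax5 went the other way, with its lowest value of the 9 arrays on floxed replicate 5 at 1421765_at (6.58) and at 1454401_at (5.59). Whether RNA quality or cell make-up has a part in the values of that array was not tested.

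**Figure D4:**
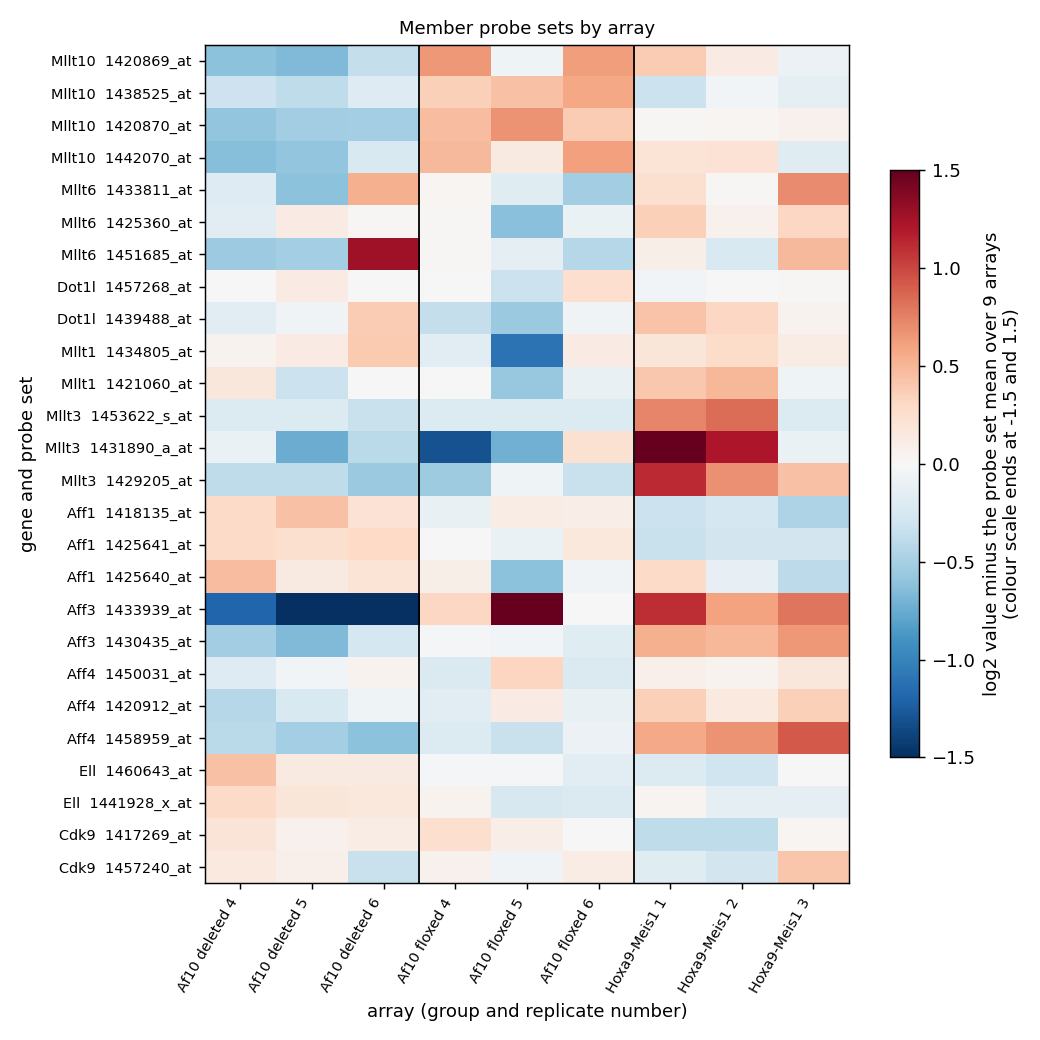
Each member probe set (rows) on each of the 9 arrays (columns), as the log2 value minus the mean of that probe set over the arrays; the colour scale ends at -1.5 and 1.5. The 4 Mllt10 rows are blue on the deleted arrays and the Aff3 row 1433939_at is the deepest blue there, while most cells of the Mllt3, Aff3 and Aff4 rows are red on the Hoxa9-Meis1 arrays.

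Other genes of the same machinery were counted from a list of 50 that includes the 10 members, of which 46 were measured by a probe set of a single gene. Of the 36 that are not members, 1 was called between deleted and floxed leukemias, and it was lower, where 8.45% of all named genes had a called probe set and 4.72% one called lower. This was Supt16, a subunit of the FACT histone chaperone, by 1 of its 2 probe sets (11.35 against 11.94, difference -0.59, limma adjusted p = 0.0494; the other -0.43, 0.0658). That call was lost without any 1 of the 6 arrays (up to 0.139). The median difference of the 81 probe sets of these 36 genes was -0.0022, with 0.04 over all probe sets. None of 7 genes of the MLL complex was called, among them Men1 (menin), with differences of 0.09, 0.51 and 0.11 (limma adjusted p = 0.855, 0.0953 and 0.684), Psip1 (LEDGF), with -0.22 to 0.12 over 3 probe sets, and Kmt2a, which encodes MLL itself, with 0.18 and 0.07. Among 7 measured genes of P-TEFb and its control, 0 were called in any comparison and 2 of 18 probe sets had an unadjusted p under 0.05 in this one, against the 21.6% of all given above. The cyclin T genes Ccnt1 (-0.19 and -0.49, limma adjusted p = 0.663 and 0.102) and Ccnt2 (-0.46 to 0.14 over 5 probe sets) and the P-TEFb inhibitor Hexim1 (0.08 and 0.58) did not pass. Nor did Ell2, a paralog of Ell (-0.93 at 1450744_at, limma adjusted p = 0.235), or Aff2, the AF4 family member of which 2 probe sets were at 7.31 to 7.61 (0.04 and -0.11). None of 6 genes of the PAF1 complex or 4 of histone H2B ubiquitylation was called.

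Against Hoxa9-Meis1 leukemias, 5 of the 36 other genes were called higher in floxed leukemias and 0 lower, and 5 were higher and 1 lower in deleted leukemias. The shares of all named genes with a called probe set were 7.77% higher and 5.05% lower for floxed, and 11.2% and 8.77% for deleted. Bcor, whose product binds AF9 and a Polycomb complex, was higher in floxed leukemias at all 3 of its probe sets, by 0.85 to 1.06 (limma adjusted p = 0.0098 to 0.0282), and in deleted leukemias at 2 of 3, by 0.70 and 0.85 (0.0388 and 0.015). Supt16 was higher in floxed leukemias by 0.72 at 1 of 2 probe sets (limma adjusted p = 0.00638). Ctr9, a PAF1 subunit, was higher in both MLL-AF9 groups by 1 of 5 probe sets (0.64 and 0.72, limma adjusted p = 0.0491 and 0.022). Another Ctr9 probe set, 1448076_at, differed the other way without passing (-0.86 and -0.76, limma adjusted p = 0.0756 and 0.0878), so the direction for the gene is not settled. Rnf20, a ligase for H2B, was higher in both by 1 of 4 (0.46 and 0.50, limma adjusted p = 0.0474 and 0.0243). Ube2a, an H2B ubiquitin-conjugating enzyme, was higher in floxed leukemias by 0.62 at 1 of 2 probe sets (limma adjusted p = 0.0479). In deleted leukemias Nelfe, a subunit of the pausing factor NELF, was higher by 0.61 (limma adjusted p = 0.00791) and Rbbp5, a core subunit of MLL complexes, by 0.58 (0.0175). Ube2b, a paralog of Ube2a, was lower by 1.29 and 0.88 at 2 of 4 probe sets (differences -1.29 and -0.88, limma adjusted p = 0.00497 and 0.0467). Of the 7 called probe sets for floxed and 8 for deleted leukemias, 5 and 6 lost the call under some alternative. Those that held throughout were Bcor 1429438_at and Supt16 1419741_at for floxed, and Nelfe and Ube2b 1439477_at for deleted leukemias.

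Genes whose pattern over the 9 arrays was most like that of 2 members are given as a description, by Pearson's r of log2 values over 9 arrays that share their 3 groups, among 5630 genes with a mean of at least 6 and a range of at least 1. For Mllt10 at 1420869_at the closest were Slc38a1 (r = 0.92), an amino acid transporter, Ermp1 (0.92), Kif17, a kinesin (0.92), Nipbl, a cohesin loader (0.91), and Ptprs, a receptor phosphatase (0.91). The most opposite were Zmat3, a p53 target (-0.98), Lair1, an inhibitory receptor (-0.91), Mtap (-0.90), Ddhd1 (-0.88) and Zfp991 (-0.88). Zmat3 was at 8.37 in deleted, 7.20 in floxed and 7.39 in Hoxa9-Meis1 leukemias, the mirror of the Mllt10 order. For Aff3 at 1433939_at the closest were Zfp946 (0.98), Echdc1 (0.97), Clasp2 (0.97), Pdk2 (0.97) and Ubn2 (0.97), and the most opposite Rab3d (-0.98), Fam222b (-0.98), Znfx1 (-0.98), Pwwp2b (-0.97) and Mvb12b (-0.97). Pdk2, a kinase that restrains pyruvate dehydrogenase, was at 6.09, 7.56 and 7.57, so deleted leukemias were low and the other two groups close, as for Aff3.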

How the data were processed

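Total RNA (100 ng) of 9 bone marrow leukemia samples, in 3 groups of 3, was hybridised to 1-colour Affymetrix arrays. The deposited values are intensities, 1 per probe set, made by the authors with RMA, per the submitters' processing notes; they run from 4.60 to 32082 on a linear scale, and neither the software version nor the chip definition is stated. RMA shares a fit over arrays and leaves many equal values: 32.4% of probe sets had a value tied between arrays. Log2(intensity + 1) was fitted with limma 3.58.1 in R 4.3.3 (lmFit and eBayes, all 9 arrays in 1 group-means model), and p-values were adjusted by Benjamini-Hochberg over all 45101 probe sets. Of these, 34958 have 1 gene symbol in the platform annotation, 932 several and 9211 were not listed; only the first kind was named. Probe sets of a gene were kept apart, and their levels were not compared with each other.

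The labels do not say that replicates are separate mice, so the p-values cover only the spread between arrays, which may be technical. No pair of arrays held the same values (within-group r 0.980 to 0.990, between groups 0.941 to 0.972). The members and gene lists were chosen with earlier results of these data known. Every member was named, with 8 further genes of the machinery list (Kmt2a, Men1, Psip1, Ccnt1, Ccnt2, Hexim1, Ell2 and Aff2) and up to 10 called ones per comparison. Of that list, 4 genes were not analysed here. Summed marker levels use 1 probe set a gene. Alternatives were a pseudocount of 32, quantile normalization, an intensity trend, array weights, a mean log2 of at least 6, 1 probe set per gene, only the 2 groups, each array left out, 2 arrays left out together, and the replicate number as a block. The fit was tested on simulated data.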

Additional observations from a re-analysis of the deposited data

How the results depend on the processing

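The differences of called members kept their direction under every alternative run. The calls that held under all of them were 2 of 5 member probe sets for deleted against floxed (Mllt10 1420870_at and 1438525_at), 2 of 5 for floxed against Hoxa9-Meis1 (Mllt3 1429205_at and Aff4 1458959_at) and 7 of 8 for deleted against Hoxa9-Meis1 leukemias, all but Aff4 1420912_at. With 3 arrays a group, precision is limited by their number; the arrays hold no depth. Where leaving out an array left 2 in a group, the spread was pooled over the groups. The cause of the changes below was not tested, except that 1 probe set per gene tests fewer features and fits without an array hold fewer samples.

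With 1 probe set per gene, 661 genes were lower and 585 higher in deleted against floxed leukemias, among them 2 members lower. For floxed against Hoxa9-Meis1 the counts were 603 and 1015, with 0 members lower, 0 higher and 0 genes of the machinery list lower, and for deleted against Hoxa9-Meis1 1134 and 1687, with 1 member lower, 1 higher and 1 gene of the list lower. With only the 2 groups in the fit, 1062 probe sets were lower and 673 higher in deleted against floxed, with 3 member probe sets and 1 gene of the list lower, and 1 member probe set was higher in floxed against Hoxa9-Meis1. With deleted replicate 6 and floxed replicate 5 both absent, 653 and 407 probe sets were called for deleted against floxed, and 1205 and 1459 for floxed against Hoxa9-Meis1, with 1 member probe set higher and 7 genes of the list lower. A pseudocount of 32 gave 1 gene of the list higher in deleted against floxed and 4 member probe sets higher in floxed against Hoxa9-Meis1, and an intensity trend gave 1 of the latter. Array weights gave 6 genes of the list lower in floxed against Hoxa9-Meis1, and 10 member probe sets lower and 4 higher in deleted against Hoxa9-Meis1. Quantile normalization gave 3 genes of the list higher in floxed against Hoxa9-Meis1.

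When 1 array was left out, deleted against floxed gave 844 to 1621 probe sets lower (1697 with all arrays) and 500 to 1097 higher (1082), 2 to 5 member probe sets lower, and 1 to 4 genes of the list lower and 0 to 1 higher. Floxed against Hoxa9-Meis1 gave 805 to 1860 lower (1834) and 920 to 2246 higher (2230), 2 to 5 member probe sets lower and 0 to 2 higher, and 2 to 5 genes of the list each way. Deleted against Hoxa9-Meis1 gave 2114 to 3200 lower (3528) and 1750 to 3065 higher (3242), and 2 to 6 genes of the list higher.

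Uncalled differences turned sign as follows. Deleted against floxed, without both arrays, turned to -0.0253 (Mllt1 1421060_at), 0.0522 (Mllt3 1429205_at), -0.156 and -0.324 (Mllt6 1433811_at and 1451685_at), 0.102 (Aff4 1450031_at), 0.0245 (Cdk9 1457240_at) and -0.0583 (Dot1l 1457268_at). With array weights it was 0.0556 for that Aff4 and -0.0285 for that Dot1l probe set, and with quantile normalization 0.0201 for Aff4 and 0.0306 for Mllt3 1453622_s_at. Floxed against Hoxa9-Meis1 turned to 0.0903 for Aff1 1425640_at and 0.131 for Dot1l 1457268_at without both arrays, and to 0.0919 for Dot1l with array weights. Deleted against Hoxa9-Meis1 turned to -0.081, -0.0545 and -0.102 for Mllt1 1434805_at and to 0.0211, 0.127 and 0.126 for Cdk9 1457240_at, under quantile normalization, array weights and without both arrays in turn. It also turned to -0.0266 for Dot1l 1457268_at with quantile normalization and to 0.0102 for Mllt6 1451685_at with a pseudocount of 32.

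With 1 array left out, the sign also varied, for deleted against floxed, in Cdk9 1417269_at (-0.0481 to 0.0781) and 1457240_at (-0.168 to 0.0737), Mllt3 1431890_a_at (-0.167 to 0.596), Mllt6 1433811_at (-0.179 to 0.396) and 1451685_at (-0.347 to 0.56), Aff4 1450031_at (-0.112 to 0.159) and Dot1l 1457268_at (-0.0804 to 0.206). For floxed against Hoxa9-Meis1 it varied in Aff1 1425640_at (-0.278 to 0.0903), Aff3 1433939_at (-0.686 to 0.239), Ell 1441928_x_at (-0.15 to 0.0035), Cdk9 1457240_at (-0.079 to 0.267) and Dot1l 1457268_at (-0.156 to 0.131). For deleted against Hoxa9-Meis1 it varied in Mllt1 1434805_at (-0.102 to 0.0728), Mllt6 1451685_at (-0.645 to 0.262) and Cdk9 1457240_at (-0.155 to 0.191).

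The deleted and floxed groups share the replicate numbers 4, 5 and 6, but deviations of same-numbered arrays from their group means correlated at only 0.05, 0.05 and 0.03, so the numbers were not taken to pair them. With the replicate number as a block, 1800 probe sets were lower and 1165 higher, with the same count of 5 member probe sets lower, and Aff3 1433939_at had a limma adjusted p of 0.0172.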
